A study of Homo sapiens with 18 samples.

Results

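Transcript counts of 8 genes that sense stress and control translation were examined in senescent and control fibroblasts treated with inhibitors of N-myristoyltransferase. The genes were taken by symbol: the eIF2α kinases EIF2AK1, EIF2AK2, EIF2AK3 and EIF2AK4, the IRE1 gene ERN1, the transcription factor gene XBP1, and the phosphatase subunit genes PPP1R15A and PPP1R15B. They are 8 of the 28266 gene rows of the table, and all 8 were among the 14341 genes that passed the filter on low counts.

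RNA came from IMR90 ER:RAS cells, a line of human lung fibroblasts transduced with a retrovirus that carries ER:RAS. ER:RAS is a fusion of oncogenic RAS with the hormone-binding part of the oestrogen receptor. All 18 libraries came from cells that carry this construct. Cells received 4-hydroxytamoxifen (4OHT, 100 nM), which activates the fusion and induces senescence, or DMSO as the non-senescent control. After 7 days they received IMP1088 (300 nM), DDD86481 (1.5 µM) or DMSO for 3 days, and RNA was collected on day 10. This gave 6 groups of 3 libraries: control and senescent cells, each with DMSO, IMP1088 or DDD86481. Both compounds inhibit the N-myristoyltransferases, which attach a fatty acid, myristate, to the amino end of proteins, and in the study they served to kill senescent cells. No library came from 4OHT-treated cells without the fusion, so the effects of 4OHT and of RAS cannot be told apart. The study describes its replicates of these treatments as independent experiments, whereas the labels give a replicate number and nothing more.

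Each eIF2α kinase answers to its own kind of stress: EIF2AK1 (HRI) to haem loss and mitochondrial stress, EIF2AK2 (PKR) to double-stranded RNA, EIF2AK3 (PERK) to unfolded proteins in the endoplasmic reticulum (ER), and EIF2AK4 (GCN2) to uncharged tRNA. Phosphorylated eIF2α slows translation initiation in general and favours translation of ATF4, whereas PPP1R15A (GADD34, stress-induced) and PPP1R15B (CReP, constitutive) guide the phosphatase PP1 to eIF2α and so restore translation. IRE1, the kinase and endoribonuclease encoded by ERN1, excises an intron from XBP1 mRNA in ER stress, and the spliced form encodes a factor that activates genes of ER folding, translocation and degradation. Counts per gene measure neither kinase activity, eIF2α phosphorylation nor the spliced share of XBP1 mRNA.

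Promoters are shown for the genes on which the results turn, XBP1, PPP1R15A, PPP1R15B and EIF2AK3, because stress factors act through short elements near start sites. RefSeq promoter sequences on GRCh38.p14 were matched for 7 of the 8 genes, and the 250 bases before the start site were searched on both strands. Motifs were ERSE (CCAAT and CCACG with 9 bases between them), ERSE-II (ATTGG and CCACG with 1 base between), UPRE (TGACGTGG), CARE (TGATGNAA), CRE (TGACGTCA) and ISRE (GAAA and GAAA with 2 bases between). ERSE, ERSE-II and UPRE are elements of the unfolded protein response, CARE is bound by ATF4 with C/EBP partners, and ISRE is the interferon response element. ERSE and ERSE-II share the letters CCACG, and UPRE and CRE share TGACGT. The sequences below read 5′ to 3′ on the strand of the gene, with motif matches in capitals: chr22:28800570-28800819 (minus strand) for XBP1, chr19:48872171-48872420 (plus strand) for PPP1R15A, chr1:204411818-204412067 (minus strand) for PPP1R15B and chr2:88627465-88627714 (minus strand) for EIF2AK3.
XBP1: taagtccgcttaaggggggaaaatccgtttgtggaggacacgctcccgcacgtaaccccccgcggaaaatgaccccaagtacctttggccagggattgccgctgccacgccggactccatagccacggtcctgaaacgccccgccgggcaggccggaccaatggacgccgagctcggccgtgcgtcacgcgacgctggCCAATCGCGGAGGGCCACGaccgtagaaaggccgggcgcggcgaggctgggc
PPP1R15A: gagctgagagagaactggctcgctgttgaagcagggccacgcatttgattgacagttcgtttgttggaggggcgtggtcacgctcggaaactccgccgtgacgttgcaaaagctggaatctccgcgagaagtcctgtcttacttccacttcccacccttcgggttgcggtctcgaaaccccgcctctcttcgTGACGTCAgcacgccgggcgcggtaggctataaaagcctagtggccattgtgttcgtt
PPP1R15B: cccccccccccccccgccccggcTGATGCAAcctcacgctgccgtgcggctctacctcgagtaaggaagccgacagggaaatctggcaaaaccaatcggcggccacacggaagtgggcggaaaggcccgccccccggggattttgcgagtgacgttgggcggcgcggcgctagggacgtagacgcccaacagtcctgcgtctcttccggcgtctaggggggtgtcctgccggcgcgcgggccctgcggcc
EIF2AK3: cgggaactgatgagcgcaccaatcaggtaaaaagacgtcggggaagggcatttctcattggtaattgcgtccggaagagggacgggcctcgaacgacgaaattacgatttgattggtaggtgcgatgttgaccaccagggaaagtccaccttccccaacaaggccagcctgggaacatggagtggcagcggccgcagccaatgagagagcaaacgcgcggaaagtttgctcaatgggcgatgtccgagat

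The XBP1 promoter held an ERSE, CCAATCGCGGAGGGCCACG, that began 52 bases before the start site. Of 35116 promoter windows of the same length, 0.074% held an ERSE. The PPP1R15A window held a CRE (TGACGTCA, a palindrome that matches on both strands) from 58 bases before the start, and 1.65% of all windows held one. The PPP1R15B window held a CARE (TGATGCAA) from 227 bases before the start, against 3.14% of all windows. The windows of EIF2AK2, EIF2AK3, EIF2AK4 and ERN1 and a further XBP1 window at another start site held no match to any of the 6 motifs, among them ERSE-II (0.0513% of all windows), UPRE (0.612%) and ISRE (3.02%). A match describes letters and is not evidence of binding, and EIF2AK1 was not analysed here.

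Library totals ran from 16143716 to 23189950 counts, and levels below are CPM, counts relative to library size, after scaling by the trimmed mean of M-values (TMM). Values are mean ± SD over 3 libraries, and log2 fold changes ± SE come from edgeR's quasi-likelihood fit to all libraries, with p adjusted by Benjamini-Hochberg over all genes tested. The fibroblast markers were present (6 of 6), with a summed level of 20593 to 27227 CPM in control DMSO and 16342 to 16722 CPM in senescent DMSO libraries, where 5 were lower and VIM was higher, and of 11309 to 12098 CPM in senescent libraries with an inhibitor. The defining epithelial and leukocyte markers KRT5 and CD3E had 0 counts and CDH1 and PTPRC at most 4 and 7. The epithelial marker EPCAM was detected at a low level, 1.00 ± 0.461 CPM in control DMSO and 0.562 ± 0.178 CPM in senescent DMSO libraries (log2 fold change -0.82, adjusted p = 0.0787). The endothelial markers PECAM1 and CDH5 moved with senescence, from a summed 0.0806 to 0.348 CPM in control DMSO to 4.01 to 5.17 CPM in senescent DMSO libraries, and CD68, which fibroblasts also express, rose from 17.5 ± 2.43 to 131.6 ± 15.8 CPM (log2 fold change 2.91, adjusted p = 7.25e-13). Their part in the results was not tested. Fewer cells that express a gene and less RNA per cell cannot be told apart in bulk libraries. Control DMSO replicate 3 stood apart, with a score of 57.3 on the third principal component against 14.8 and 27.8 for the other two, and values without it are given where they differ in a call. It had the lowest EIF2AK1, EIF2AK2, EIF2AK3, EIF2AK4 and ERN1 and the highest XBP1 and PPP1R15A of its group.

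In senescent against control cells with DMSO, 5 of the 8 genes passed the threshold of an adjusted p under 0.05, compared with 68.5% of all genes tested. EIF2AK2, EIF2AK4, ERN1 and PPP1R15A were higher (32.5% of all genes) and XBP1 was lower (36%). IMP1088 raised 5 of the 8 in senescent cells, EIF2AK1, EIF2AK3, XBP1, PPP1R15A and PPP1R15B, where 44.4% of all genes changed and 20.6% were higher. DDD86481 raised the same 5 in senescent cells and lowered EIF2AK4 (43.2% of all genes changed, 20.1% higher and 23.1% lower). In control cells each inhibitor raised EIF2AK1, EIF2AK3, ERN1, PPP1R15A and PPP1R15B (33.7% of all genes changed and 16.3% were higher with IMP1088, and 36.6% and 17.8% with DDD86481). The libraries of the groups did not overlap for 4 of the 8 genes with senescence (67.6% of all genes), for 6 and 7 with IMP1088 and DDD86481 in senescent cells (61% and 52.6%), and for 5 with each in control cells (41.4% and 43.4%). The counts of the 8 genes were thus near those of all genes in senescence and above them for higher genes with the inhibitors. The 8 genes were chosen with earlier results of these data known, so this excess is a description and was not tested. The median log2 fold change of the 8 genes was 0.28 with senescence, 0.46 and 0.53 with IMP1088 and DDD86481 in senescent cells, and 0.48 and 0.47 in control cells, with medians over all genes between -0.051 and 0. In a given state the 2 inhibitors were compared with the same DMSO libraries, and the senescence comparison uses both sets of DMSO libraries again, so these comparisons are not independent.

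**Figure D1:**
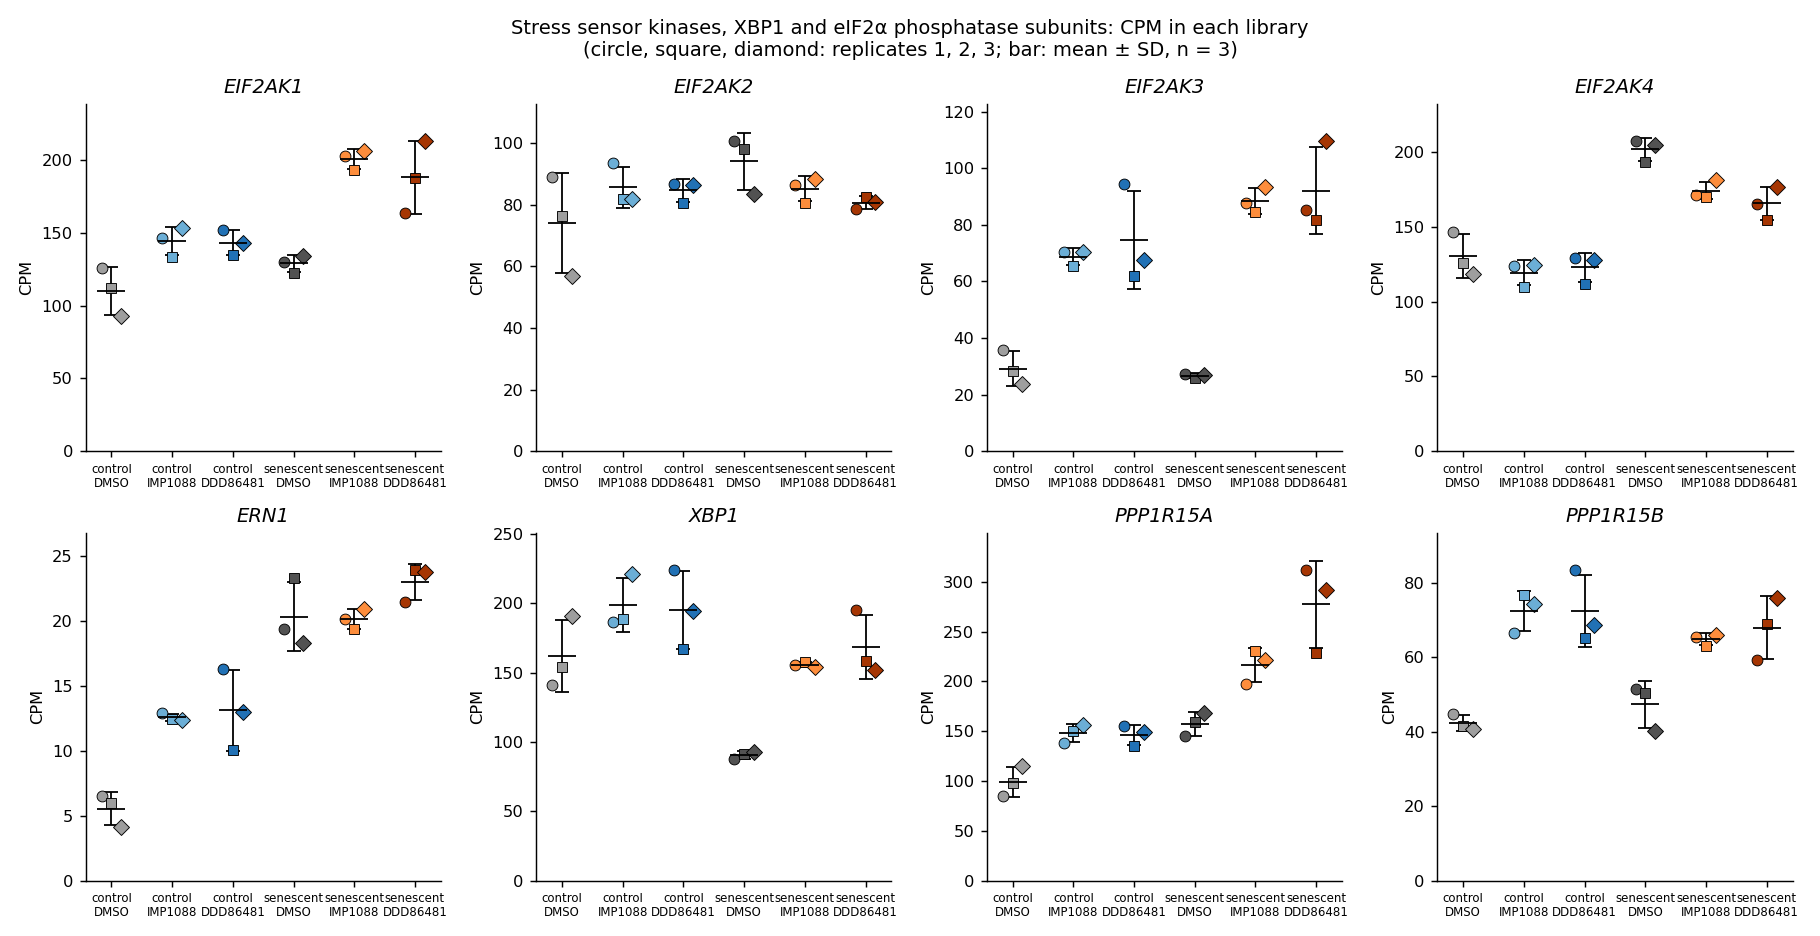
Level of each gene (CPM, linear axis from 0) in each of the 18 libraries, by group, with mean ± SD (n = 3). EIF2AK3 sits between 23.7 and 35.8 CPM in the DMSO libraries of both states and between 62.0 and 109.6 CPM in every inhibitor library, and XBP1 is at 87.5 to 92.4 CPM in senescent DMSO libraries and at 141 CPM or more in all others.

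EIF2AK3, the PERK gene, showed the largest response of the 8 to the inhibitors in senescent cells and did not pass the test between senescent and control cells without them. It lies on chromosome 2 (88856259 to 88991036, minus strand, GRCh37, as for all gene positions below). Senescent DMSO libraries had 27.3, 25.8 and 27.0 CPM, senescent IMP1088 libraries 87.6, 84.3 and 93.4 CPM, and senescent DDD86481 libraries 85.1, 81.5 and 109.6 CPM. Every inhibitor library was thus above every DMSO library. EIF2AK3 rose by 1.73 ± 0.15 with IMP1088 (adjusted p = 3.17e-08) and 1.78 ± 0.15 with DDD86481 (adjusted p = 2.35e-08), on the log2 scale, or 3.31-fold and 3.44-fold. Control cells had 35.8, 28.2 and 23.7 CPM with DMSO, 70.5, 65.3 and 70.4 CPM with IMP1088 and 94.4, 62.0 and 67.6 CPM with DDD86481. These groups did not overlap either, and EIF2AK3 rose by 1.23 ± 0.15 (adjusted p = 4.22e-06) and 1.35 ± 0.15 (adjusted p = 1.41e-06). The senescent response exceeded that of control cells by 0.50 ± 0.21 with IMP1088 (adjusted p = 0.0909) and 0.43 ± 0.21 with DDD86481 (adjusted p = 0.128), which did not pass. Without control DMSO replicate 3 both differences passed (0.62, adjusted p = 0.0257, and 0.56, adjusted p = 0.0409), and the second also did without control DDD86481 replicate 1 (0.67, adjusted p = 0.0177). Between senescent and control cells with DMSO the log2 fold change was -0.13 ± 0.15 (adjusted p = 0.462), with a 95% confidence interval from -0.45 to 0.19.

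Of 11 regulators of the sensor kinases, 4 rose and none fell in senescent cells with IMP1088 (20.6% and 23.9% of all genes). With DDD86481 4 rose and 1 fell (20.1% and 23.1%). In control cells 6 rose and 1 fell with each (16.3% and 17.4% with IMP1088, 17.8% and 18.7% with DDD86481). The chaperone PDIA6, which acts on PERK and IRE1, passed in none of these comparisons (log2 fold changes from -0.096 to 0.23, adjusted p from 0.0757 to 0.505). HSPA5 (BiP), which holds PERK and IRE1 inactive, rose by 1.99 ± 0.15 with IMP1088 (adjusted p = 3.61e-09) and 1.71 ± 0.15 with DDD86481 (adjusted p = 2.23e-08) in senescent cells, and by 1.22 ± 0.15 (adjusted p = 3.3e-06) and 1.23 ± 0.15 (adjusted p = 2.88e-06) in control cells. DNAJC3, the PERK inhibitor p58IPK, rose by 1.10 ± 0.12 and 1.02 ± 0.12 in senescent cells (adjusted p = 4.11e-07 and 1.17e-06). In control cells DNAJC3 rose by 1.06 ± 0.12 and 1.10 ± 0.12 (adjusted p = 1.67e-06 and 1.06e-06). In senescent against control cells with DMSO, 4 of the 11 were higher and 2 lower (2 and 2 with upper quartile scaling), shares near or below the 32.5% and 36% of all genes. GCN1, the activator of GCN2, was higher by 0.67 ± 0.18 (adjusted p = 0.00264). Of the other ER stress sensors and their proteases, 4 of 5 could be tested, as ERN2, the epithelial IRE1, had at most 4 counts. Of these 4, 2 rose in senescent cells with each inhibitor (20.6% and 20.1% of all genes) and 3 in control cells (16.3% and 17.8%). None fell with an inhibitor (17.4% to 23.9% of all genes). ATF6 rose by 0.62 ± 0.11 with IMP1088 (adjusted p = 0.000138) and 0.37 ± 0.11 with DDD86481 (adjusted p = 0.0114) in senescent cells. In control cells ATF6 rose by 0.32 ± 0.11 (adjusted p = 0.031) and 0.38 ± 0.11 (adjusted p = 0.011). ATF6B rose by 0.33 and 0.29 in senescent cells, and by 0.57 and 0.60 in control cells, where MBTPS1 rose as well.

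Targets of PERK and ATF4 were counted from a hand-written list of 17 genes. With the inhibitors, 12 of the 17 rose in senescent cells with each compound and none fell. Of all genes, 20.6% and 20.1% were higher and 23.9% and 23.1% lower. The median log2 fold change was 0.59 with IMP1088 and 0.70 with DDD86481, against -0.043 and -0.037 over all genes tested. DDIT3, the CHOP gene, rose by 1.75 ± 0.20 and 1.31 ± 0.20 in senescent cells (adjusted p = 8.1e-07 and 2.56e-05). With upper quartile scaling 1 gene also fell with DDD86481. In control cells 8 rose and 1 fell with IMP1088 (16.3% and 17.4% of all genes), and 9 and 1 with DDD86481 (17.8% and 18.7%). DDIT3 rose there too, by 1.78 ± 0.20 and 1.61 ± 0.20 (adjusted p = 1.96e-06 and 6.59e-06). In senescent against control cells with DMSO the list was divided, with 7 higher and 4 lower, against 32.5% and 36% of all genes. TRIB3 (2.61 ± 0.19, adjusted p = 1.62e-10) and CHAC1 (2.60 ± 0.29, adjusted p = 1.29e-07) were higher. NUPR1 fell from 117 ± 17.8 to 3.11 ± 0.704 CPM (-5.23 ± 0.16, adjusted p = 1.99e-16). ATF4 itself decreased by 0.67 ± 0.14 on the log2 scale (adjusted p = 0.000201). ATF4 rose by 1.35 ± 0.14 (adjusted p = 1.7e-07) and 1.30 ± 0.14 (adjusted p = 3.04e-07) in senescent cells with the inhibitors. Its response exceeded that of control cells by 0.98 ± 0.19 and 0.99 ± 0.19 (adjusted p = 0.00104 and 0.000927). TRIB3 differed the other way, by -1.40 ± 0.25 and -1.41 ± 0.25 (adjusted p = 0.000541 and 0.000475). Over the list 4 passing interactions were positive and 1 negative with IMP1088 (12.1% and 14.2% of all genes). With DDD86481 they were 3 and 1 (14.4% and 15.9%). The list medians were 0.032 and -0.038.

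EIF2AK1, the HRI gene (chromosome 7, 6061878 to 6098806, minus strand), rose with both inhibitors in both states. Its levels were 130.4, 123 and 134 CPM in senescent DMSO, 203, 193 and 206 CPM in senescent IMP1088 and 164, 188 and 213 CPM in senescent DDD86481 libraries. No inhibitor library overlapped the DMSO libraries. IMP1088 and DDD86481 gave log2 fold changes of 0.64 ± 0.11 (adjusted p = 6.92e-05) and 0.54 ± 0.11 (adjusted p = 0.000367). In control cells the levels were 126, 112 and 93.1 CPM with DMSO, 147, 134 and 153 CPM with IMP1088 and 152, 135 and 143 CPM with DDD86481, again without overlap. The log2 fold changes were smaller, 0.39 ± 0.11 (adjusted p = 0.00866) and 0.38 ± 0.11 (adjusted p = 0.00987), and in fits of these groups alone neither passed (adjusted p = 0.0672 and 0.07). The interaction with senescence did not pass for either inhibitor (0.25 ± 0.15, adjusted p = 0.231, and 0.17 ± 0.15, adjusted p = 0.423). In senescent against control cells with DMSO the log2 fold change was 0.22 ± 0.11 (adjusted p = 0.0693), the libraries overlapped, and the call depended on the fit: it passed without control DMSO replicate 1 (0.33, adjusted p = 0.011), with RLE size factors (adjusted p = 0.0414) and with DESeq2 (adjusted p = 0.0387). Of the exonic bases of EIF2AK1, 9.69% overlap AIMP2 on the opposite strand, and reads of these genes cannot be told apart there if counting ignored strand.

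EIF2AK4, the GCN2 gene (chromosome 15, 40226316 to 40327792, plus strand), was higher in senescent cells and, of the 4 kinases, was the one that fell with an inhibitor. Control DMSO libraries had 147, 126 and 118 CPM and senescent DMSO libraries 208, 193 and 205 CPM, without overlap. The log2 fold change was 0.63 ± 0.092 (adjusted p = 4.57e-06). Senescent cells had 172, 170.3 and 181 CPM with IMP1088 and 166, 155 and 177 CPM with DDD86481, all below the DMSO libraries. With DDD86481 it fell by 0.28 ± 0.092 on the log2 scale (adjusted p = 0.0168), a call lost without senescent DMSO replicate 1 (-0.26, adjusted p = 0.0598) or senescent DDD86481 replicate 2 (-0.24, adjusted p = 0.0788). With IMP1088 the log2 fold change was -0.21 ± 0.092 (adjusted p = 0.0685), and it passed with the replicate block (-0.21, adjusted p = 0.044), with upper quartile scaling (adjusted p = 0.049) and with DESeq2 (adjusted p = 0.0422). It also passed in a fit of only the groups compared (-0.18, adjusted p = 0.0175). In control cells the levels overlapped, at 124, 109.9 and 124 CPM with IMP1088 and 129, 112 and 128 CPM with DDD86481 (log2 fold changes -0.13 ± 0.092 and -0.085 ± 0.092, adjusted p = 0.303 and 0.499).

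EIF2AK2, the PKR gene (chromosome 2, 37326353 to 37384665, minus strand), varied least between groups. Control DMSO libraries had 89.1, 76.4 and 56.8 CPM and senescent DMSO libraries 101, 98.0 and 83.5 CPM, with overlap. The log2 fold change of 0.34 ± 0.12 passed the test (adjusted p = 0.0157), but not without control DMSO replicate 3 (0.18, adjusted p = 0.0914), senescent DMSO replicate 1 (0.29, adjusted p = 0.0679) or replicate 2 (0.31, adjusted p = 0.0519), nor with upper quartile scaling (0.19, adjusted p = 0.153). All 12 inhibitor libraries lay between 78.5 and 93.4 CPM. None of the 4 inhibitor comparisons passed, with log2 fold changes from -0.22 ± 0.12 (adjusted p = 0.145, DDD86481 in senescent cells) to 0.21 ± 0.12 (adjusted p = 0.187, IMP1088 in control cells). Without control DMSO replicate 1, both control comparisons passed (0.36, adjusted p = 0.0151, and 0.34, adjusted p = 0.019). The interactions with senescence did not pass, at -0.35 ± 0.17 with IMP1088 (adjusted p = 0.129) and -0.41 ± 0.17 with DDD86481 (adjusted p = 0.0708), but both did without that library (-0.51, adjusted p = 0.0133, and -0.56, adjusted p = 0.00591). The DDD86481 value also passed without senescent DMSO replicate 3 (-0.49, adjusted p = 0.0447).

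PKR is itself an interferon-induced gene, and the list of interferon-stimulated genes did not share its direction in senescence. Of 18 such genes, 16 could be tested. Of these, 13 were lower and 1 higher in senescent than in control cells with DMSO (36% and 32.5% of all genes). The median log2 fold change was -0.95, against -0.051 over all genes, and EIF2AK2 was at 0.34. IFIT1, an interferon-induced RNA-binding protein, had 14.5 ± 2.38 CPM in control and 0.316 ± 0.0618 CPM in senescent cells (-5.49 ± 0.35, adjusted p = 1.7e-11). The gene that was higher, named after its values were seen, was the chemokine CXCL10, from 2.10 ± 0.511 to 29.6 ± 4.56 CPM (3.83, adjusted p = 5.56e-11). In senescent cells CXCL10 returned to 0.869 ± 0.466 CPM with IMP1088 and 0.890 ± 0.0910 CPM with DDD86481. The list as a whole had, in senescent cells, 5 genes higher and 2 lower with IMP1088 (20.6% and 23.9% of all genes). It had 3 higher and 3 lower with DDD86481 (20.1% and 23.1%).

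As a share of the transcripts of the 4 eIF2α kinases, taken as counts per kilobase of exon, EIF2AK3 was at 3.59% ± 0.219 in control DMSO and 2.57% ± 0.0172 in senescent DMSO libraries. It was at 7.02% ± 0.123 and 7.53% ± 1.24 in control cells with IMP1088 and DDD86481, and at 6.77% ± 0.131 and 7.41% ± 0.639 in senescent cells. Every inhibitor library was above every DMSO library on this scale, and senescent DMSO libraries were below control DMSO libraries. EIF2AK1 held the largest share in every group, with 51.4% ± 0.555 in control DMSO and 46.9% ± 1.40 in senescent DMSO libraries, and EIF2AK4 reached 33.6% ± 0.379 in senescent DMSO libraries. The order of the kinases depends on the length used, because the union of annotated EIF2AK3 exons spans 20691 bases and its canonical transcript 4536 bases. With canonical lengths the EIF2AK3 share in senescent cells was 7.27% with DMSO and 18.6% with IMP1088, and EIF2AK4 (44.97%) exceeded EIF2AK1 (36.1%) in senescent DMSO libraries.

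**Figure D2:**
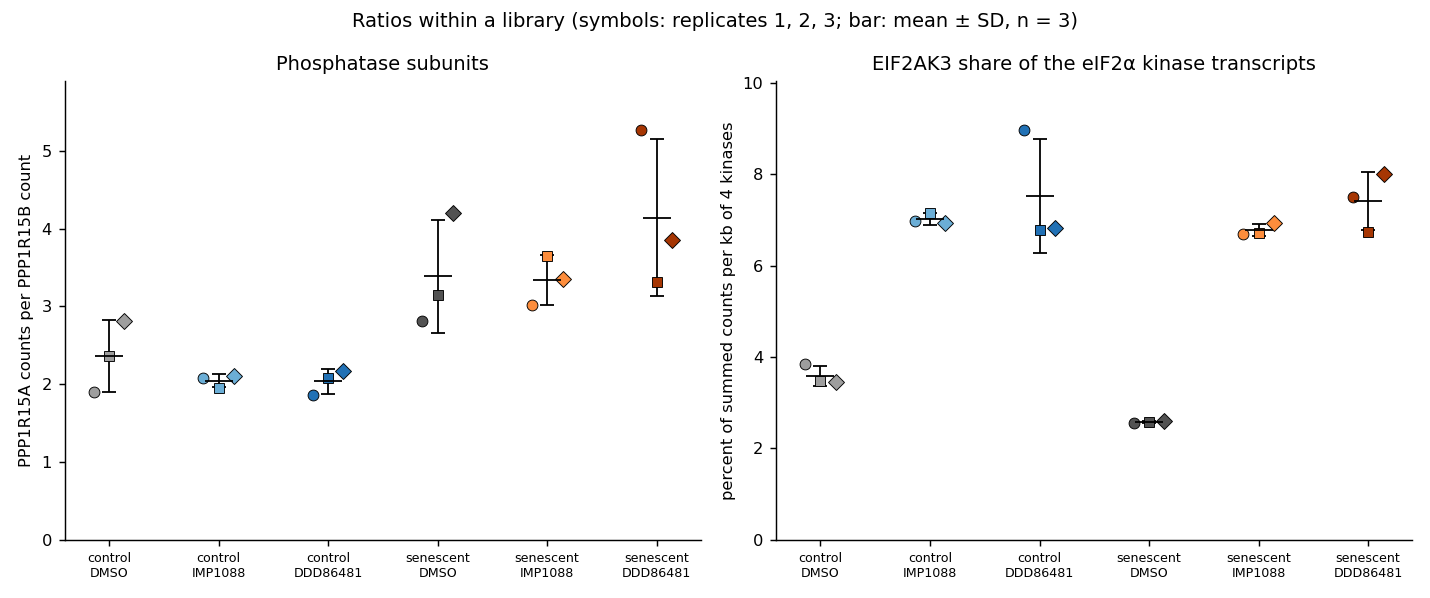
Left, counts of PPP1R15A per count of PPP1R15B in each library. Right, EIF2AK3 as a percent of the counts per kilobase of exon of the 4 eIF2α kinases. Symbols are replicates and bars are mean ± SD (n = 3): the ratio lies between 1.86 and 2.82 in control and between 2.81 and 5.27 in senescent libraries, and the EIF2AK3 share lies between 2.56% and 3.84% in DMSO and between 6.69% and 8.96% in inhibitor libraries.

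ERN1, the IRE1 gene (chromosome 17, 62116440 to 62208179, minus strand), was the least abundant of the 8. It was raised by senescence alone and by the inhibitors alone, and no further rise passed the test when they were combined. Control libraries had 6.49, 5.99 and 4.13 CPM with DMSO, 12.9, 12.4 and 12.3 CPM with IMP1088 and 16.3, 10.1 and 12.9 CPM with DDD86481. Senescent libraries had 19.3, 23.3 and 18.3 CPM with DMSO, 20.2, 19.3 and 20.9 CPM with IMP1088 and 21.4, 23.9 and 23.7 CPM with DDD86481. Control DMSO libraries were thus below all others, control inhibitor libraries were intermediate, and senescent DMSO libraries overlapped those of each inhibitor in senescent cells, while the IMP1088 libraries were below the DDD86481 libraries. The log2 fold change with senescence was 1.86 ± 0.17 (adjusted p = 3.67e-09), or 3.64-fold. In control cells IMP1088 raised ERN1 by 1.17 ± 0.17 (adjusted p = 2.07e-05) and DDD86481 by 1.23 ± 0.17 (adjusted p = 1.19e-05), whereas in senescent cells the log2 fold changes were -0.011 ± 0.15 (adjusted p = 0.964, 95% confidence interval -0.33 to 0.31) and 0.18 ± 0.15 (adjusted p = 0.36, interval -0.14 to 0.50). The difference between the states passed for each inhibitor, at -1.18 ± 0.23 (adjusted p = 0.000827) and -1.05 ± 0.23 (adjusted p = 0.00198), where 26.2% and 30.3% of all genes had a passing interaction and 14.2% and 15.9% a negative one. It passed in each of the 12 fits that left out 1 library, with values from -1.31 to -1.02 for IMP1088 and from -1.18 to -0.83 for DDD86481. Under the inhibitors, where no DMSO library enters, ERN1 remained higher in senescent cells by 0.68 ± 0.16 with IMP1088 (adjusted p = 0.000569) and 0.81 ± 0.16 with DDD86481 (adjusted p = 9.77e-05).

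Of 6 genes that act with IRE1, as partners or as substrate, 3 were higher and 1 lower with senescence (32.5% and 36% of all genes). With upper quartile scaling these counts were 0 and 2. With IMP1088 1 rose and 1 fell in senescent cells (20.6% and 23.9%) and 1 fell in control cells (17.4%). With DDD86481 1 rose and 2 fell in senescent cells (20.1% and 23.1%) and 2 fell in control cells (18.7%). RTCB, the ligase that joins XBP1 exons, rose by 0.77 ± 0.096 with IMP1088 (adjusted p = 2.08e-06) and 0.85 ± 0.096 with DDD86481 (adjusted p = 7e-07) in senescent cells. In control cells RTCB did not pass (0.20 ± 0.095 and 0.23 ± 0.096, adjusted p = 0.116 and 0.0659). Its interaction passed for each inhibitor (0.58 ± 0.14, adjusted p = 0.00417, and 0.62 ± 0.14, adjusted p = 0.00223). BLOC1S1, an mRNA that IRE1 cleaves directly, fell in control cells by 0.52 ± 0.16 on the log2 scale with IMP1088 (adjusted p = 0.0183) and by 0.63 ± 0.17 with DDD86481 (adjusted p = 0.00549). In senescent cells BLOC1S1 was at -0.27 ± 0.17 with IMP1088 (adjusted p = 0.204) and at -0.47 ± 0.17 with DDD86481 (adjusted p = 0.031), and its interaction did not pass for either inhibitor (adjusted p = 0.45 and 0.626).

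XBP1 (chromosome 22, 29190543 to 29196585, minus strand) was the gene of the 8 that was lower in senescent cells, and the inhibitors raised it there to the range of control cells. Senescent DMSO libraries had 87.5, 91.5 and 92.4 CPM and control DMSO libraries 141, 154 and 191 CPM. These did not overlap, and XBP1 fell by 0.84 ± 0.12 on the log2 scale (adjusted p = 4.46e-06). Senescent cells had 156, 157 and 154 CPM with IMP1088 and 195, 159 and 152 CPM with DDD86481. XBP1 rose by 0.78 ± 0.12 (adjusted p = 3.09e-05) and 0.90 ± 0.12 (adjusted p = 7.25e-06), measured against the same senescent DMSO libraries as the fall. In control cells the levels overlapped DMSO, at 186, 188 and 221 CPM with IMP1088 and 224, 167 and 194 CPM with DDD86481. Neither IMP1088 (0.30 ± 0.12, adjusted p = 0.0646) nor DDD86481 (0.27 ± 0.12, adjusted p = 0.0864) passed, but both did without control DMSO replicate 3, the library with the highest XBP1 of its group (0.43, adjusted p = 0.00622, and 0.40, adjusted p = 0.00969). The second also passed without control DDD86481 replicate 2 (0.37, adjusted p = 0.0288).

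The XBP1 response was larger in senescent than in control cells, by 0.49 ± 0.17 with IMP1088 (adjusted p = 0.042) and 0.63 ± 0.17 with DDD86481 (adjusted p = 0.0103), where 12.1% and 14.4% of all genes had a positive interaction that passed. The IMP1088 difference was lost in 9 of 12 fits that left out 1 library, in which adjusted p ranged from 0.0104 to 0.103 over all 12 and the value from 0.35 to 0.60. The libraries whose removal ended it were control DMSO replicate 3 (0.35, adjusted p = 0.103), control IMP1088 replicates 1 and 2 (0.48 and 0.49) and every replicate of senescent DMSO (0.46, 0.49 and 0.50) and senescent IMP1088 (0.49, 0.48 and 0.49). The DDD86481 difference passed in 12 of 12, from 0.49 to 0.77. ERN1 and XBP1 therefore had interactions of opposite sign: IRE1 mRNA responded in control cells, whereas XBP1 mRNA had the larger response in senescent cells. With the inhibitors XBP1 remained lower in senescent than in control cells with IMP1088 (-0.35 ± 0.12, adjusted p = 0.0132), a call lost without control IMP1088 replicate 3 (-0.27, adjusted p = 0.0665). With DDD86481 the value was -0.21 ± 0.12 (adjusted p = 0.12), which passed without control DDD86481 replicate 2 (-0.30, adjusted p = 0.038), without senescent DDD86481 replicate 1 (-0.33, adjusted p = 0.0266) and with upper quartile scaling (-0.32, adjusted p = 0.0231).

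**Figure D3:**
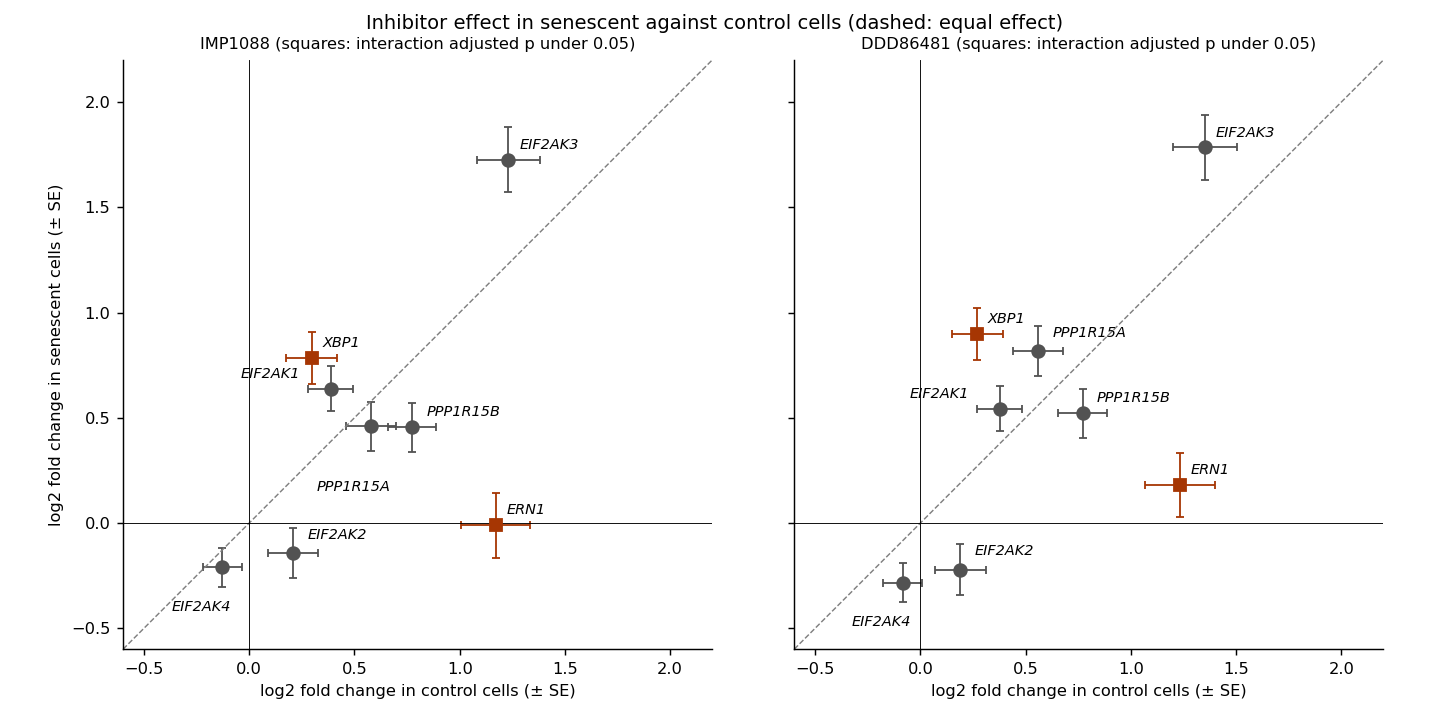
Log2 fold change of each gene with an inhibitor in control cells (x axis) and in senescent cells (y axis), with SE bars, for IMP1088 and DDD86481. Squares mark genes whose difference between the states passed the test, ERN1 below the line of equal response (-1.18 and -1.05) and XBP1 above it (0.49 and 0.63).

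Targets of spliced XBP1 did not follow the level of total XBP1 mRNA in senescence. Of 16 such genes, 9 were higher and none lower in senescent than in control cells with DMSO (32.5% and 36% of all genes). Their median log2 fold change was 0.45. With upper quartile scaling 8 were higher and 2 lower, and without control DMSO replicate 3 11 were higher and 1 lower. EDEM1, which extracts misfolded glycoproteins for degradation, was higher by 1.90 ± 0.11 (adjusted p = 2.64e-12). SRP54 of the signal recognition particle was higher by 0.82 ± 0.099 (adjusted p = 3.41e-07), and SSR3 of the translocon by 0.79 ± 0.10 (adjusted p = 9.96e-07). SEC61A1, the translocation channel, was at -0.18 ± 0.10 (adjusted p = 0.131). With the inhibitors, 13 of the 16 rose with IMP1088 and 12 with DDD86481 in senescent cells (20.6% and 20.1% of all genes). In control cells 12 and 11 rose (16.3% and 17.8%). None was lower in either state, with medians between 0.62 and 0.69. DNAJC3 and DNAJB9 are on this list and also among the regulators of the sensor kinases, so they rose in both counts. In senescent cells with IMP1088, DNAJB9, an ER co-chaperone that represses IRE1, rose by 1.88 ± 0.16 (adjusted p = 1.32e-08) and SYVN1, the ubiquitin ligase of ER-associated degradation, by 1.11 ± 0.17 (adjusted p = 1.91e-05). In control cells with IMP1088 DNAJB9 rose by 1.49 ± 0.16 (adjusted p = 5.78e-07) and SYVN1 by 1.22 ± 0.17 (adjusted p = 1.53e-05). The interaction passed for neither gene with either inhibitor. EDEM1 rose less in senescent than in control cells, with interactions of -0.51 ± 0.15 (adjusted p = 0.0145) and -0.59 ± 0.15 (adjusted p = 0.00556). The list was divided in the interactions that passed, with 2 positive and 1 negative for IMP1088 (12.1% and 14.2% of all genes). For DDD86481 they were 2 and 2 (14.4% and 15.9%). KDELR3, a receptor that returns proteins to the ER, rose more in senescent cells (0.87 ± 0.16, adjusted p = 0.000717, and 0.71 ± 0.16, adjusted p = 0.00364), as did SRP54 (0.44 ± 0.14, adjusted p = 0.0235, and 0.39 ± 0.14, adjusted p = 0.0366).

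**Figure D4:**
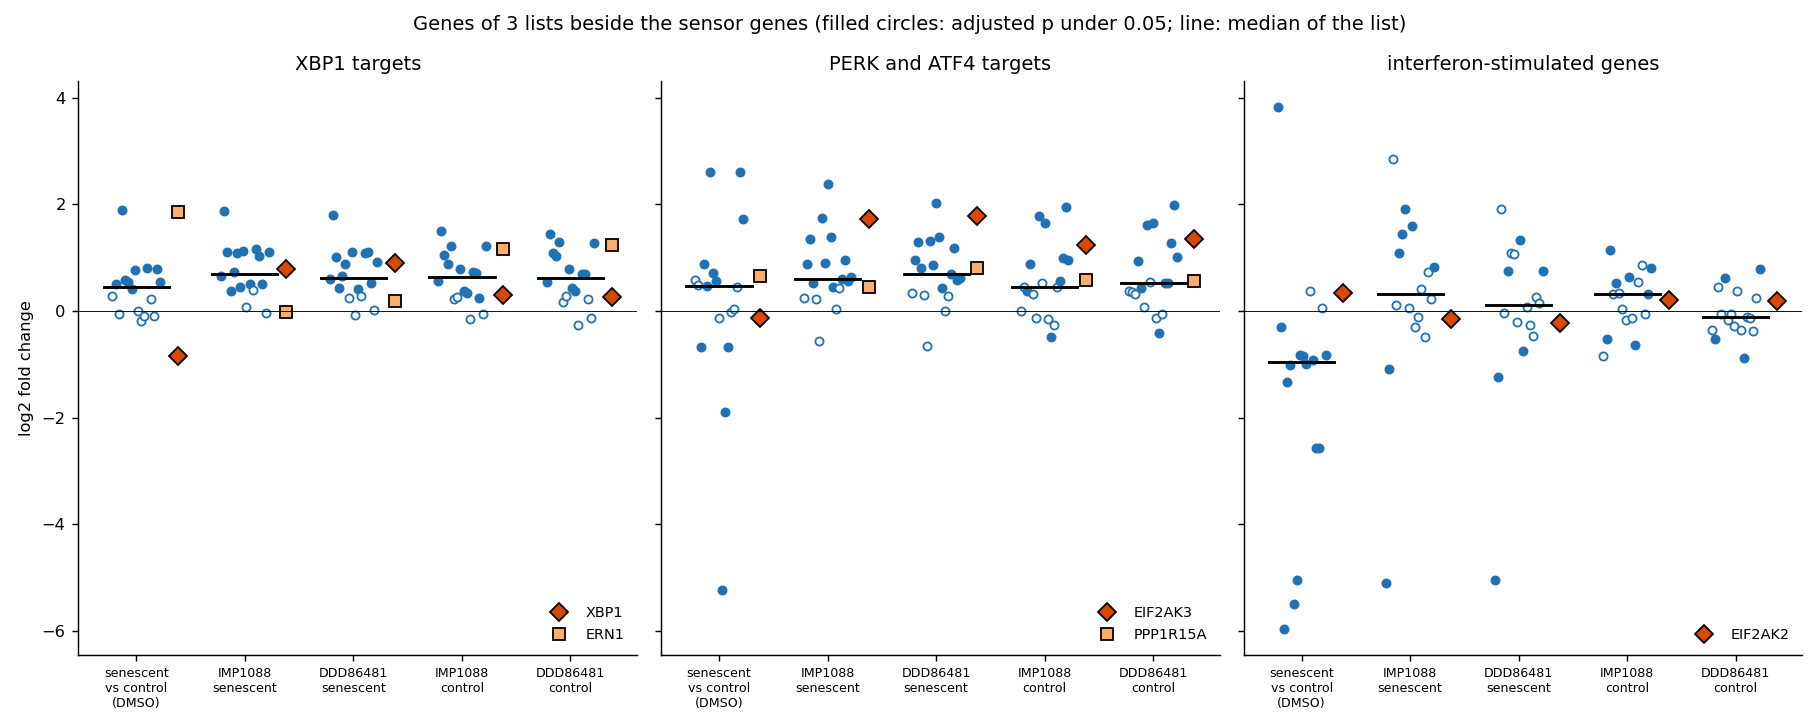
Log2 fold changes of list genes, for senescence and each inhibitor comparison. XBP1 targets (16 genes) stand beside XBP1 and ERN1, PERK and ATF4 targets (17) beside EIF2AK3 and PPP1R15A, and interferon-stimulated genes (16 tested) beside EIF2AK2. Medians of the XBP1 targets lie between 0.45 and 0.69 in all 5 comparisons, and that of the interferon-stimulated genes lies at -0.95 in senescence.

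PPP1R15A, the GADD34 gene (chromosome 19, 49375469 to 49379316, plus strand), rose with senescence and with each inhibitor in both states. Control libraries had 85.0, 98.3 and 115 CPM with DMSO, 138, 149.8 and 157 CPM with IMP1088 and 155, 136 and 149 CPM with DDD86481. Senescent libraries had 145, 159 and 169 CPM with DMSO, 197, 231 and 222 CPM with IMP1088 and 312, 229 and 292 CPM with DDD86481. Neither inhibitor group overlapped the DMSO libraries of its state, and the senescent DMSO libraries were above those of control DMSO. The log2 fold change with senescence was 0.67 ± 0.12 (adjusted p = 5.04e-05). In senescent cells it was 0.46 ± 0.12 with IMP1088 (adjusted p = 0.00344) and 0.82 ± 0.12 with DDD86481 (adjusted p = 1.39e-05), and in control cells 0.58 ± 0.12 (adjusted p = 0.000903) and 0.56 ± 0.12 (adjusted p = 0.00112). No interaction passed (-0.12 ± 0.17, adjusted p = 0.632, and 0.26 ± 0.17, adjusted p = 0.255). The combination of senescence and DDD86481 gave the highest mean, 278 ± 43.5 CPM against 99.4 ± 15.0 CPM in control DMSO.

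PPP1R15B, the CReP gene (chromosome 1, 204365620 to 204381015, minus strand), rose with the inhibitors but did not pass between the states. Control libraries had 44.9, 41.6 and 40.8 CPM with DMSO, 66.6, 76.7 and 74.3 CPM with IMP1088 and 83.4, 65.1 and 68.7 CPM with DDD86481. Senescent libraries had 51.5, 50.5 and 40.2 CPM with DMSO, 65.5, 63.2 and 66.1 CPM with IMP1088 and 59.2, 69.0 and 75.9 CPM with DDD86481. Inhibitor and DMSO libraries did not overlap within a state, whereas the DMSO libraries of both states did. The log2 fold changes were 0.77 ± 0.11 with each inhibitor in control cells (adjusted p = 3.41e-05 and 3.49e-05), and 0.45 ± 0.12 (adjusted p = 0.00308) and 0.52 ± 0.12 (adjusted p = 0.00105) in senescent cells. Neither interaction passed, at -0.32 ± 0.16 with IMP1088 (adjusted p = 0.152) and -0.25 ± 0.16 with DDD86481 (adjusted p = 0.253). With senescence alone the value was 0.16 ± 0.12 (adjusted p = 0.228, 95% confidence interval -0.082 to 0.40). A long non-coding RNA on the opposite strand overlaps 5.6% of its exonic bases.

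The ratio of PPP1R15A to PPP1R15B counts was 2.36 ± 0.462 in control DMSO and 3.39 ± 0.725 in senescent DMSO libraries. It was 2.05 ± 0.0824 and 2.04 ± 0.163 in control cells with IMP1088 and DDD86481, and 3.34 ± 0.318 and 4.14 ± 1.01 in senescent cells. With IMP1088 the ratio was 1.95 to 2.11 in control and 3.01 to 3.65 in senescent libraries, without overlap. With DDD86481 it was 1.86 to 2.17 and 3.31 to 5.27, also without overlap. With DMSO these ranges overlapped, at 1.89 to 2.82 and 2.81 to 4.20. The states were not tested against each other under the inhibitors. With 3 against 3 libraries the smallest possible p of the two-sided exact permutation test is 0.1. No comparison of the log2 ratio could therefore pass the threshold of 0.05, and the p-values below cannot decide whether it changed. The difference was 0.52 with senescence (p = 0.2) and 0.28 with DDD86481 in senescent cells (p = 0.4, both 0.5 by exact permutation after adjustment over 5 comparisons). In control cells the differences were -0.19 and -0.20 (exact permutation p = 0.4 each), and with IMP1088 in senescent cells the ratios overlapped (-0.0033, p = 1).

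The substrate and the catalytic partner of these subunits were also measured. Of 8 subunits of eIF2 and its exchange factor eIF2B, 6 were higher and 2 lower with senescence (32.5% and 36% of all genes), led by EIF2B3 at 0.82 ± 0.13 (adjusted p = 9.75e-06) and EIF2B2 at 0.81 ± 0.11 (adjusted p = 1.61e-06). In senescent cells 2 of these subunits rose and none fell with each inhibitor. Of all genes, IMP1088 raised 20.6% there and lowered 23.9%, whereas DDD86481 raised 20.1% and lowered 23.1%. In control cells 1 subunit rose and 2 fell with each inhibitor. Of all genes, IMP1088 raised 16.3% in that state and lowered 17.4%, whereas DDD86481 raised 17.8% and lowered 18.7%. No subunit fell in control cells with either inhibitor when control DMSO replicate 3 was left out. EIF2S3, eIF2γ, rose in all 4 inhibitor comparisons, by 0.84 ± 0.081 and 0.68 ± 0.081 in senescent cells (adjusted p = 9.46e-08 and 1.3e-06) and by 0.69 ± 0.081 and 0.60 ± 0.081 in control cells (adjusted p = 2.6e-06 and 1.12e-05). EIF2S1, the phosphorylated subunit eIF2α, was higher with senescence (0.31 ± 0.090, adjusted p = 0.00476) and was at 0.10 ± 0.090 with IMP1088 in senescent cells (adjusted p = 0.382). Of the PP1 catalytic genes, PPP1CA was higher (0.54 ± 0.091, adjusted p = 2.65e-05) and PPP1CB and PPP1CC were lower with senescence, and PPP1CB rose with IMP1088 (0.46 ± 0.11, adjusted p = 0.00176) and DDD86481 (0.55 ± 0.11, adjusted p = 0.000383) in senescent cells.

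**Figure D5:**
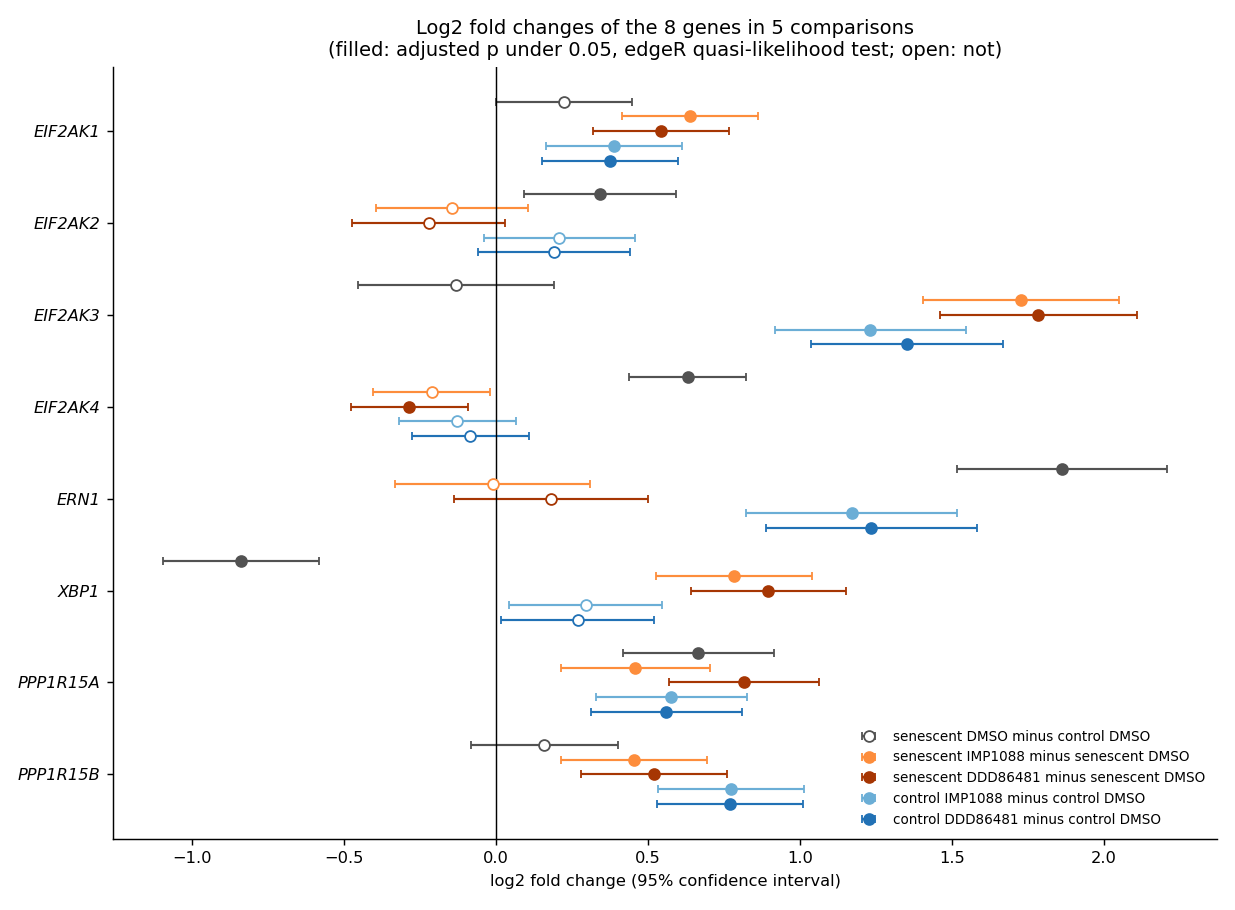
Log2 fold change of each gene in 5 comparisons, with 95% confidence intervals, with filled symbols for an adjusted p under 0.05. EIF2AK3 lies between 1.23 and 1.78 with the inhibitors and at -0.13 with senescence, and ERN1 is at 1.86 with senescence and at -0.011 and 0.18 with the inhibitors in senescent cells.

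Senescent and control cells were also compared under each inhibitor, without any DMSO library. With IMP1088, 6 of the 8 genes passed (74.1% of all genes), 5 higher and 1 lower (36.2% and 37.9%), and 7 did not overlap (80.9%). With DDD86481, 4 passed, all higher (74% and 36.1% of all genes), and 4 did not overlap (76.1%). PPP1R15A was higher in senescent cells by 0.55 ± 0.12 (adjusted p = 0.000329) and 0.92 ± 0.12 (adjusted p = 7.03e-07), EIF2AK4 by 0.55 ± 0.092 (adjusted p = 2.32e-05) and 0.43 ± 0.092 (adjusted p = 0.000311), and EIF2AK1 by 0.47 ± 0.11 (adjusted p = 0.000502) and 0.39 ± 0.11 (adjusted p = 0.00264). EIF2AK3 was higher by 0.36 ± 0.15 with IMP1088 (adjusted p = 0.0314), which was lost without any 1 of the control IMP1088 replicates (0.38, 0.33 and 0.38) or senescent IMP1088 replicates 1 and 3 (0.37 and 0.32), and with upper quartile scaling (0.26, adjusted p = 0.0936). With DDD86481 the EIF2AK3 value was 0.30 ± 0.15 (adjusted p = 0.0703). It passed with the replicate block (0.31, adjusted p = 0.0464) and without control DDD86481 replicate 1 (0.51, adjusted p = 0.00407) or senescent DDD86481 replicate 2 (0.38, adjusted p = 0.042). It also passed with RLE size factors (0.33, adjusted p = 0.0497) and without the filter (0.32, adjusted p = 0.023).

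IMP1088 and DDD86481 were given at different doses, so their values are set side by side and a difference is not one at matched dose. In the edgeR fit 0 of the 14341 genes (0%) passed between them in either state. At an unadjusted p under 0.05 there were 570 genes in senescent cells (579 with DESeq2) and 141 in control cells (118 with DESeq2). Of the 8 genes, PPP1R15A in senescent cells was the 1 among them, at -0.36 ± 0.12 for IMP1088 minus DDD86481 (95% confidence interval -0.60 to -0.11, edgeR unadjusted p = 0.00647, adjusted p = 1). The groups did not overlap for 1 of the 8 in senescent cells, ERN1 (10.5% of all genes), and for 0 in control cells (5.33%). For EIF2AK3 the interval was -0.36 to 0.25 in senescent and -0.43 to 0.19 in control cells.

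In order of mean level, neighbouring groups separated without overlap at few points. For EIF2AK3 this was between control IMP1088 and control DMSO, and for XBP1 and PPP1R15B between senescent IMP1088 and senescent DMSO. ERN1 separated between senescent IMP1088 and control DDD86481 and between control IMP1088 and control DMSO, and EIF2AK2 nowhere. Per kilobase of exon, XBP1 was the most abundant of the 8 in control DMSO libraries (53.5 ± 8.61 CPM per kilobase), followed by PPP1R15A (29.0 ± 4.38), with ERN1 the lowest (0.289 ± 0.0650). In senescent DMSO libraries PPP1R15A (45.9 ± 3.51) exceeded XBP1 (29.9 ± 0.857).

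Across the 18 libraries, which share the 6 groups, the genes closest to each member by Pearson's r over 12744 genes were taken as a description. For EIF2AK3 they were SUCO (0.99), COG3 (0.98) and GGCX (0.98), and for ERN1 ELOA (0.98) and HACE1 (0.97). XBP1 was closest to CWC25 (0.98), DNAJC25 (0.97) and DUS3L (0.96), and PPP1R15A to TOM1 (0.97), PIM3 (0.96) and NAPA (0.96). PPP1R15B was closest to RB1 (0.95), SEC23IP (0.94) and DNAJC3 (0.93). EIF2AK1 was closest to KLHDC10 (0.98), EIF2AK4 to PPME1 (0.98) and EIF2AK2 to FBXO38 (0.91). Among the 8 genes themselves, EIF2AK3 was closest to PPP1R15B (0.88) and EIF2AK1 (0.84), and EIF2AK4 and XBP1 ran in opposite directions (-0.76).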

How the data were processed

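Poly(A) RNA of 18 libraries was sequenced single-end. The authors deposited 1 table of raw counts per gene, with DDD86481 columns named PCLX001. The paper's methods name TopHat on hg19, whereas the submitters' processing notes name STAR 2.7.8a, DRAGEN, DESeq2 1.32.0 and hg38. The study's reporting summary also lists HTSeq. Libraries were directional and TopHat was set to that strand. The strand setting of the counting step is not given in the sources used here, so reads of overlapping genes may be shared. Gene positions and exon lengths are from GENCODE on GRCh37, and promoters from RefSeq on GRCh38.p14.

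Groups were taken from the labels. Of 28266 rows, 6836 had no count and 14341 passed filterByExpr. After TMM scaling, edgeR 4.0.16 (R 4.3.3) fitted the quasi-likelihood model to all 18 libraries, with Benjamini-Hochberg adjustment over all genes tested and a threshold of 0.05. A prior count of 2 was used for log2 CPM in the correlations, for which genes had a mean of at least 1 CPM, and 0.5 was added to counts in the ratio. Ratios were tested by exact permutation in scipy 1.17.1. Alternatives were DESeq2 1.42.0, RLE and upper quartile scaling, no filter, fits of only the groups compared, a replicate block and leaving out each library. The fit was tested on simulated data.

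With library totals of 16143716 to 23189950 counts, the lowest value of the 8 genes was 4.13 CPM. This was 83 counts, for ERN1 in control DMSO replicate 3. The floor of 3 counts was 0.149 CPM in that library, and it covers counting error only. The members, the hand-written gene lists and the named genes (all members, list genes by size of change, up to 3 closest genes by correlation, of which 1 is not reported here) were chosen with earlier results of these data known. Same-numbered replicates deviated together in every pair (r above 0.1) between control DMSO and IMP1088 libraries (0.394, 0.123 and 0.231), control IMP1088 with control DDD86481 and senescent IMP1088 with senescent DDD86481, and not in the other comparisons.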

Additional observations from a re-analysis of the deposited data

Results flagged for a closer look

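The response to the inhibitors differed between senescent and control cells for ERN1 and XBP1, by the edgeR interaction term. The ERN1 log2 fold change was lower in senescent cells by -1.18 with IMP1088 (adjusted p = 0.000827) and -1.05 with DDD86481 (adjusted p = 0.00198). All 3 libraries of each inhibitor group exceeded all control DMSO libraries in control cells, whereas in senescent cells they overlapped DMSO. The XBP1 log2 fold change was higher in senescent cells by 0.49 with IMP1088 (adjusted p = 0.042) and 0.63 with DDD86481 (adjusted p = 0.0103). The inhibitor comparisons of a state share their DMSO libraries, so the values for IMP1088 and DDD86481 are not independent of each other. Without control DMSO replicate 3 the XBP1 value with IMP1088 was 0.35 (adjusted p = 0.103).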

How the results depend on the processing

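Of 1152 results of the 8 genes under alternatives, 1094 kept their side of the threshold, no called result reversed, and 31 had the opposite sign with neither value past the threshold. In senescence the all-gene median moved by -0.16 with upper quartile scaling. Fits of only the groups compared called 2716 genes for IMP1088 (4829 with all groups) and 2842 for DDD86481 (5242) in control cells, from fewer libraries. Without the filter 1 gene passed between the inhibitors in senescent cells, against 0 with it. The count of the 8 genes past the threshold in the IMP1088 interaction ran from 1 to 3 when 1 library was left out. The EIF2AK3 share of the kinases, in control DMSO, IMP1088 and DDD86481 and senescent DMSO, IMP1088 and DDD86481 libraries, was 8.44, 16.4, 17.4, 5.92, 16.1 and 17.4% with no division by length, and 10.3, 19.4, 20.5, 7.27, 18.6 and 20.0% with canonical transcript lengths (a choice made after seeing the data, as were the list counts under alternatives and the values without control DMSO replicate 3). The rise with the inhibitors was present with each length. The EIF2AK3 interaction with IMP1088 passed with upper quartile scaling (0.55, adjusted p = 0.0482), without the filter (adjusted p = 0.0438) and in a fit of only the groups compared (adjusted p = 0.0377), XBP1 with IMP1088 in control cells passed without the filter (adjusted p = 0.0482), and PPP1R15B was lower in senescent than in control cells with IMP1088 under upper quartile scaling (-0.26, adjusted p = 0.04). The cause was not tested.

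The fit with the replicate block changed 2 calls of the 8 genes. In these comparisons same-numbered replicates did not deviate together with r above 0.1 in every pair. The values were 0.0962, 0.0695 and 0.00692 between senescent DMSO and senescent IMP1088 libraries. Between control and senescent DDD86481 libraries they were -0.0184, 0.0454 and 0.0268. Whether the numbers pair the samples cannot be told from these values. EIF2AK4 with IMP1088 in senescent cells passed with the replicate block (-0.21, adjusted p = 0.044), as did EIF2AK3 in senescent against control cells with DDD86481 (0.31, adjusted p = 0.0464).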
